A study of Mus musculus with 45 samples.

Results

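The genes described here carry cholesterol out of cells or answer to the sterol-sensing liver X receptors (LXRs), and they were followed in cultured mouse forelimb buds exposed to bisphenol A. There were 6 of them among the 36300 genes in the deposited tables: the rows whose gene symbol is Abca1, Abcg1, Apoe, Nr1h2, Nr1h3 or Mylip. Each was found in all 9 tables, and each passed the filter on low counts in every comparison. The forelimb buds came from CD1 mice, an outbred stock with no genetic alteration named in the labels, at gestation day 13. Per the labels, each embryo's forelimbs were pooled in culture bottles, and limbs of both sexes shared cultures. All bottles held the same supplemented BGJb medium. A bottle received dimethyl sulfoxide as vehicle, 10 µM bisphenol A or 50 µM bisphenol A, and limbs were cultured for 3, 24 or 48 h. Each of the 9 combinations had 5 libraries, which made 45 libraries of poly-A RNA in all. For the 50 µM libraries at 3 h, 1 label gave 24 h and the title gave 3 h, and the title was followed. The labels do not say which libraries share a litter or a dam, so the p-values speak to the spread among these 45, part of which may be technical.

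LXRs are nuclear receptors that bind oxidised cholesterol derivatives and, paired with a retinoid X receptor (RXR), switch on genes that lower the sterol content of a cell. Among their best known targets are the membrane transporters Abca1, which loads cholesterol and phospholipid onto lipid-poor apolipoproteins, and Abcg1, which passes cholesterol to more mature lipoprotein particles. Apolipoprotein E (Apoe) is an acceptor for the exported lipid, and Mylip (also called IDOL) is a ubiquitin ligase that sends lipoprotein receptors for degradation. Nr1h3 encodes LXRα and Nr1h2 encodes LXRβ, the more widely expressed of the pair. The opposite arm of sterol control is run by SREBP2, a transcription factor released when sterols in the endoplasmic reticulum run low. Its gene, Srebf2, carries in an intron a microRNA, miR-33, that is known to bind the messenger RNAs of Abca1 and, in mouse, of Abcg1.

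The sequences through which these controls are read differ between the members. The mature mmu-miR-33-5p lies at chr15:82198127-82198147 on the plus strand of GRCm38.p6, the same build as the mm10 of the tables. That position is inside Srebf2, in an intron of the 3 coding transcripts that span it. It is shown with its seed, bases 2 to 8, in capitals (RefSeq).
mmu-miR-33-5p: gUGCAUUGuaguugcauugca
In the 3′ untranslated region of the longest coding transcript of each gene (GENCODE M21), the 7-base seed match CAATGCA was found 3 times in Abca1 and 2 times in Abcg1. It was found 0 times in Apoe, Nr1h2, Nr1h3 and Mylip. Of 21020 genes with a 3′ untranslated region, 7.02% held at least 1 match. The matches are in capitals in the stretches below, which lie at chr4:53033783-53033812 on the minus strand and chr17:31114996-31115024 on the plus strand. In Abca1 the first and the second match overlap.
Abca1 seed matches: tattCAATGCAATGCActtCAATGCAacga
Abcg1 seed matches: gcaacgCAATGCAacgCAATGCAgacagt
A match is a description of letters. The microRNA itself was not measured in these libraries.

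Promoter windows, from 250 bases before to 50 after the start of the gene, were on hand for 5 of the 6 members (RefSeq, GRCm38.p6); Abcg1 was the exception. They were searched on both strands for the LXR-RXR direct repeat (DR4, the half-site AGGTCA, any 4 bases, and AGGTCA again) with up to 3 mismatches, the E-box CACGTG and the TATA box TATAAA. The sterol response element, to which SREBPs bind, was also searched for, with up to 1 mismatch. The motifs found do not overlap in the window shown. The window of Abca1, at chr4:53159846-53160145 on the minus strand, is shown because it held the direct repeat, the E-box and the TATA box, here in capitals.
Abca1 promoter: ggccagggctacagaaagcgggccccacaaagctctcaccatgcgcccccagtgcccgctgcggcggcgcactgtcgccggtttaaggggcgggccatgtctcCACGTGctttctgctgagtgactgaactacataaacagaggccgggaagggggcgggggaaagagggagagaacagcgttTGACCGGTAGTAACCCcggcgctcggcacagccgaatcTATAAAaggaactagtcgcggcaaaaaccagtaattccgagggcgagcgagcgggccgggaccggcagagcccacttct
The direct repeat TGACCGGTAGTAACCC, read on the reverse strand, began at base -67 from the start and carried 3 mismatches. The E-box began at -147 and the TATA box at -29. Matches this close to the direct repeat occurred in 21.9% of 32544 promoter windows, the E-box in 7.17% and the TATA box in 13.6%. The window of Mylip held a TATA box at -32, and of the 3 windows of Apoe, which has several annotated starts, 1 held a TATA box on each strand. The direct repeat was not found in the windows of Apoe, Nr1h2, Nr1h3 or Mylip. The sterol response element was found in no window of the 5 members, and in 1.95% of the 32544 promoter windows.

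Libraries held 17.5 to 27.1 M gene counts. Counts of single members ranged from 32 to 133 for Nr1h3 and from 1247 to 10639 for Apoe, so Nr1h3 is the least precisely measured of the 6. The libraries had the tissue identity their labels give: forelimb mesenchyme genes were present in all 45, with CPM (counts scaled to library size) of 200.7 to 346.7 for Tbx5, 357.5 to 718.4 for Prrx1 and 186.2 to 439.3 for Hoxd13. Markers of liver and fat were nearly absent in most libraries, with median levels from 0 for Apoa2 to 0.147 CPM for Alb. Of 7 listed, 5 were found. Single libraries held more, with Alb at up to 14.5 CPM. The sum of the 5 reached 16.2 CPM in vehicle at 3 h, 16.2 at 50 µM and 3 h, and 10.4 at 50 µM and 24 h. Markers of skeletal muscle and macrophages were present, and their sums are given below beside the results they move with. At 3 h the sum of 4 Y-linked genes was 163.9 to 235.4 CPM in the vehicle libraries, 84.1 to 167.1 in the 50 µM libraries and 0.0436 to 174.4 in the 10 µM libraries. At 24 h it was 147.1 to 219.7 CPM in vehicle, 66.4 to 251.7 at 50 µM and 0.24 to 208.4 at 10 µM. At 48 h it was 133.5 to 227.6 in vehicle, 68.0 to 231.7 at 50 µM and 80.6 to 317.2 at 10 µM. Libraries near 0 go against mixed sexes in those cultures, and the part of embryo sex in the results was not tested. In bulk tissue, fewer cells of a type and less RNA per cell cannot be told apart.

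Compared per length, in FPKM, which divide fragments by gene length and library size, Apoe was the most abundant member and Nr1h3 the least in every group. In vehicle limbs at 3 h, the FPKM were 35.7 ± 4.63 for Apoe, 21.9 ± 2.03 for Nr1h2 and 19.1 ± 1.53 for Mylip (SD, n = 5). Abca1 followed at 9.03 ± 1.49, Abcg1 at 4.03 ± 0.223 and Nr1h3 at 1.05 ± 0.136. Nr1h2 and Mylip overlapped at that time, with 20.1 to 24.5 against 17.36 to 20.96 FPKM, while the other neighbours in the order were apart. By 48 h Apoe stood at 197 ± 18.6 FPKM, Mylip at 24.7 ± 0.736 and Nr1h2 at 22.1 ± 1.19. Abca1 was at 14.9 ± 0.645, Abcg1 at 6.57 ± 0.899 and Nr1h3 at 1.85 ± 0.278. Of the receptors, LXRβ was the abundant one and LXRα the scarce one in all 9 groups.

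**Figure D1:**
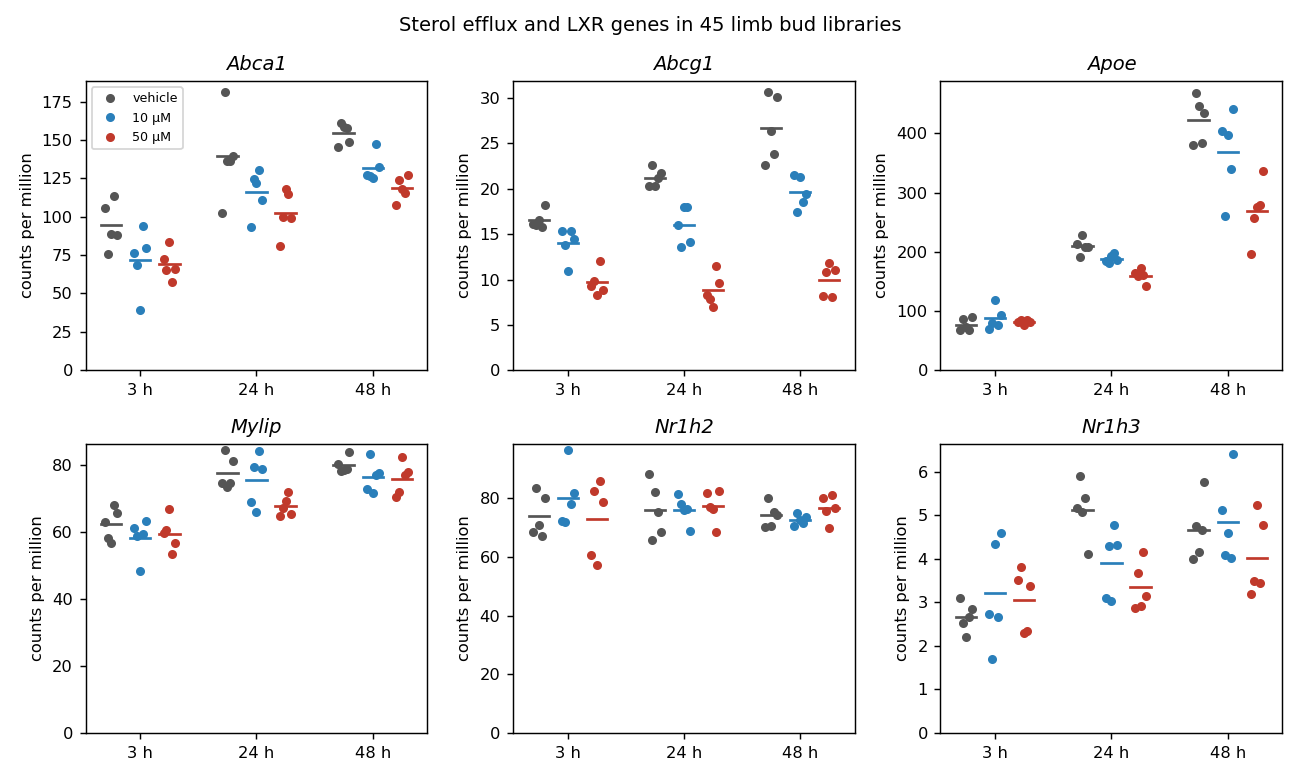
CPM (vertical axis, from 0, on one scale over the 45 libraries) of each of the 6 genes in every library, by culture time and dose; each point is a library and each bar the mean of 5. Abcg1 was lower at 50 µM at every time, with 8.34 to 12.0 CPM against 15.8 to 18.2 in vehicle at 3 h, while Nr1h2 lay between 57.2 and 96.7 CPM in all groups.

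Abcg1 was the member with the largest fold change at 50 µM at each of the 3 times. All values from here on are CPM on a single scale over the 45 libraries, in the order of replicates 1 to 5, unless FPKM is named. In vehicle limbs at 3 h, Abcg1 measured 16.2, 16.0, 16.5, 15.8 and 18.2 CPM. At 10 µM it measured 15.4, 13.8, 10.99, 15.4 and 14.5, and at 50 µM 9.27, 9.89, 8.34, 12.0 and 8.90. All 5 of the 10 µM libraries were below all vehicle libraries, and all 5 of the 50 µM libraries were further below, 4 of them also below every 10 µM library.

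At 24 h the vehicle libraries held 20.3, 22.6, 20.3, 21.2 and 21.8 CPM of Abcg1. Those at 10 µM held 16.0, 13.6, 18.0, 18.1 and 14.1, and those at 50 µM 8.28, 7.81, 6.95, 11.5 and 9.66. The 3 doses formed 3 groups without overlap. At 48 h the values were 22.7, 30.7, 26.4, 23.8 and 30.2 in vehicle, 21.5, 17.4, 21.3, 18.5 and 19.4 at 10 µM, and 8.21, 10.8, 11.8, 8.13 and 11.01 at 50 µM. Again no library of one dose reached into the next, and the vehicle libraries were the most spread in CPM. As a percentage of the mean, the SD was 13.5% in vehicle, 8.96% at 10 µM and 17.0% at 50 µM. Over time, the level climbed in vehicle and stayed near 10 CPM at 50 µM.

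Against vehicle, Abcg1 at 50 µM was 1.72-fold lower at 3 h, a log2 fold change of -0.78 ± 0.11 (SE), with an adjusted p of 0.00105. Here and below, adjusted p-values come from edgeR's quasi-likelihood test with Benjamini-Hochberg adjustment over all genes tested, 5 libraries against 5, and a gene is called when its adjusted p is below 0.05. Abcg1 was the only 1 of the 6 members called at 3 h, where 1.41% of 16988 genes were called in either direction, 0.889% as higher and 0.518% as lower. At 24 h it was 2.40-fold lower (log2 fold change -1.27 ± 0.13, edgeR adjusted p = 0.000172). At 48 h it was 2.69-fold lower (-1.43 ± 0.13, edgeR adjusted p = 2.16e-05). Each of these falls was called in all 10 fits that left out 1 library. In the authors' deposited table, the log2 fold changes of Abcg1 at 50 µM were -0.78, -1.26 and -1.42.

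Besides Abcg1, Apoe was called lower at 24 h, and Apoe and Abca1 at 48 h, which made 2 of 6 members at 24 h and 3 of 6 at 48 h, with 0 called higher. The fold change of Abca1 was no smaller at the earlier times, where it missed the threshold. The shares of all genes called were 3.47% of 16841 at 24 h and 9.18% of 16732 at 48 h, with 1.37% and 3.88% as higher and 2.1% and 5.3% as lower. With the titles' replicate numbers, which paired the libraries at 48 h, as a block, 2598 genes were called at 48 h in place of 1536, and the number of members called was again 3. Groups that did not overlap, with 50 µM below vehicle, were found for 1 member at 3 h (Abcg1), 3 at 24 h (Abcg1, Apoe and Mylip) and 3 at 48 h (Abcg1, Apoe and Abca1). Of all genes, 1.61%, 2.92% and 4.72% lay below vehicle in that way at the 3 times.

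**Figure D2:**
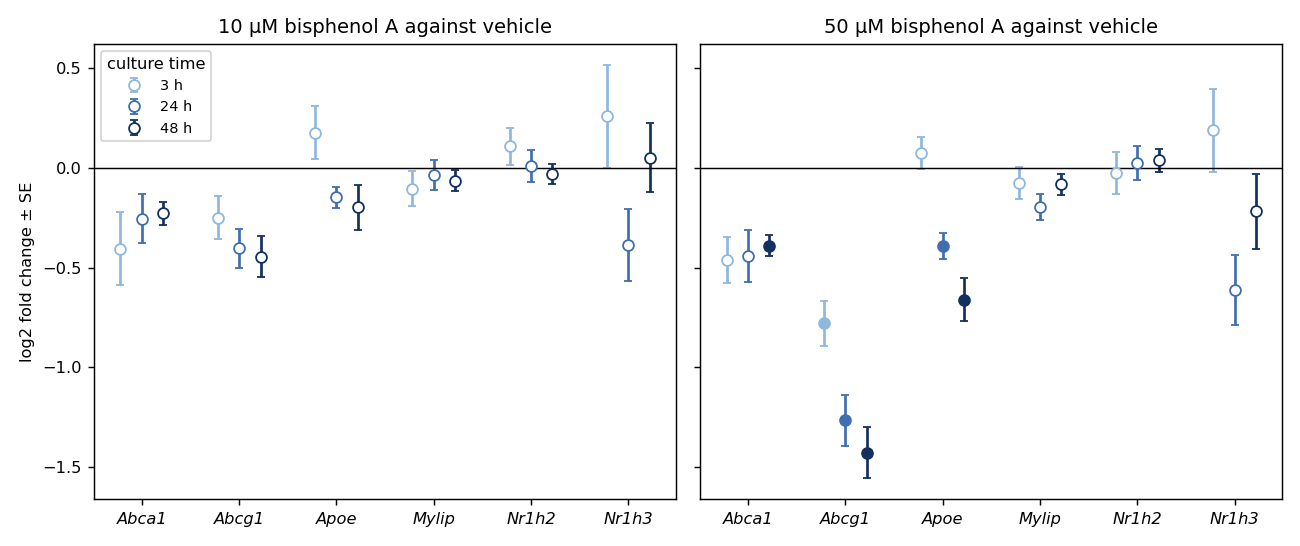
Log2 fold change against vehicle (vertical axis, with its SE) of each member at 10 µM (left) and 50 µM (right), at 3, 24 and 48 h; filled points are called by edgeR and open points are not. Abcg1 goes from -0.78 to -1.43 at 50 µM, and no point is filled at 10 µM.

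Apoe, the lipid acceptor, showed 2 patterns at once, a steep climb with culture time and a smaller climb at 50 µM. Vehicle libraries held 67.9, 87.0, 73.2, 68.1 and 89.7 CPM at 3 h, 212.5, 190.4, 227.8, 207.8 and 208.5 at 24 h, and 380.8, 468.4, 446.9, 383.9 and 434.1 at 48 h. The 3 times did not overlap, and the climb was 2.72-fold from 3 to 24 h and 2.02-fold from 24 to 48 h (log2 fold changes 1.45 ± 0.09 and 1.01 ± 0.07, edgeR adjusted p = 3.6e-08 and 1.88e-06).

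At 50 µM, Apoe measured 82.0, 84.0, 76.1, 85.7 and 80.8 CPM at 3 h, 164, 159.8, 172.3, 160.9 and 142.4 at 24 h, and 197, 256.9, 274.9, 279.7 and 336.5 at 48 h. The 3 h values lay within the range of vehicle, while all 10 later ones were below every vehicle library of their time. The log2 fold changes were 0.07 ± 0.08 at 3 h (edgeR adjusted p = 0.776), -0.39 ± 0.07 at 24 h (0.00421) and -0.66 ± 0.11 at 48 h (0.00116), the last a 1.58-fold lower level.

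At 10 µM, Apoe ranged from 69.4 to 119 CPM at 3 h, from 180.6 to 198.1 at 24 h and from 260.8 to 441.1 at 48 h. The 48 h group was wide, with replicate 2 at the bottom, and overlapped vehicle. None of these comparisons with vehicle passed the test, with log2 fold changes of 0.17 ± 0.13, -0.15 ± 0.05 and -0.20 ± 0.11 (edgeR adjusted p = 0.703, 1.00 and 0.903).

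Abca1, the transporter for lipid-poor acceptors, had fitted values below 0 at both doses and all 3 times, and it was called only at 50 µM and 48 h. At 48 h the vehicle libraries were tight, at 145.6, 161.2, 158.2, 157.7 and 148.9 CPM. The 10 µM libraries were at 127.3, 126.8, 124.9, 147.2 and 132.5, and the 50 µM libraries at 107.8, 124, 118.2, 115.6 and 127. All 50 µM libraries were below all vehicle libraries, and 4 of 5 at 10 µM were. The log2 fold change at 50 µM was -0.39 ± 0.05, a 1.31-fold lower level (edgeR adjusted p = 0.00032).

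The earlier times gave folds of about the same size with more spread. At 3 h, Abca1 measured 105.9, 75.8, 88.8, 113.2 and 87.9 CPM in vehicle and 72.4, 65.2, 83.4, 57.6 and 65.9 at 50 µM, a log2 fold change of -0.46 ± 0.12 (edgeR adjusted p = 0.0609). At 24 h it measured 102.2, 181.3, 136.6, 136.4 and 139.8 in vehicle and 81.0, 99.5, 117.8, 115 and 99.1 at 50 µM, a log2 fold change of -0.44 ± 0.13 (edgeR adjusted p = 0.079). Vehicle replicate 2 overlapped the treated group at 3 h and vehicle replicate 1 did at 24 h.

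That spread of Abca1 moved with a property of the libraries as a whole. A long-gene index was taken as the mean log2 CPM of the longest 10% of protein-coding genes minus that of the shortest 10%, 1543 genes each, with the members left out. The length of Abca1 in the tables, 10363 bases, is more than the 9699 bases at which the longest 10% begins. After each group's mean was subtracted, Abca1 followed the index with Pearson's r = 0.863 over the 45 libraries. The value was -0.719 for Nr1h2, 0.618 for Mylip and -0.492 for Apoe. It was 0.0356 for Abcg1 and -0.17 for Nr1h3. The points share their libraries and normalisation, and these values are a description. Without replicate 3 of the 10 µM libraries at 3 h, which stands apart, r over the other 44 was 0.802 for Abca1, -0.669 for Nr1h2, 0.498 for Mylip, -0.333 for Apoe, -0.176 for Abcg1 and -0.00556 for Nr1h3.

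The group means of the index at 50 µM and in vehicle were within 1 SD of each other, at 2.95 ± 0.193 against 3.04 ± 0.197 at 3 h and 3.03 ± 0.21 against 2.97 ± 0.208 at 24 h (50 µM first, SD, n = 5). The exact two-sided permutation p was 0.484 at 3 h and 0.619 at 24 h, and 0.726 and 0.743 adjusted over the 6 comparisons with vehicle. With the index as a covariate, an alternative chosen after seeing the data, Abca1 at 50 µM was called at all 3 times. Its log2 fold changes were then -0.36 at 3 h (edgeR adjusted p = 0.000578), -0.50 at 24 h (0.000272) and -0.40 at 48 h (0.000241). With the muscle markers as a covariate, also chosen after seeing the data, it was called at none of the 3 times, with -0.31 at 3 h (edgeR adjusted p = 0.217), -0.06 at 24 h (0.93) and -0.28 at 48 h (0.241). In the fit of all 45 libraries it was called at 24 h (-0.44, 0.0486) and not at 48 h (-0.38, 0.0817). In the authors' deposited table the adjusted p-values of Abca1 were 0.00539, 0.0129 and 9.9e-09 at the 3 times. At 10 µM and 3 h the log2 fold change of Abca1 was -0.41 ± 0.18 (edgeR adjusted p = 0.7). There 11 alternative fits, covariates among them, gave values from -0.44 to 0.03, and 0 of them called it.

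**Figure D3:**
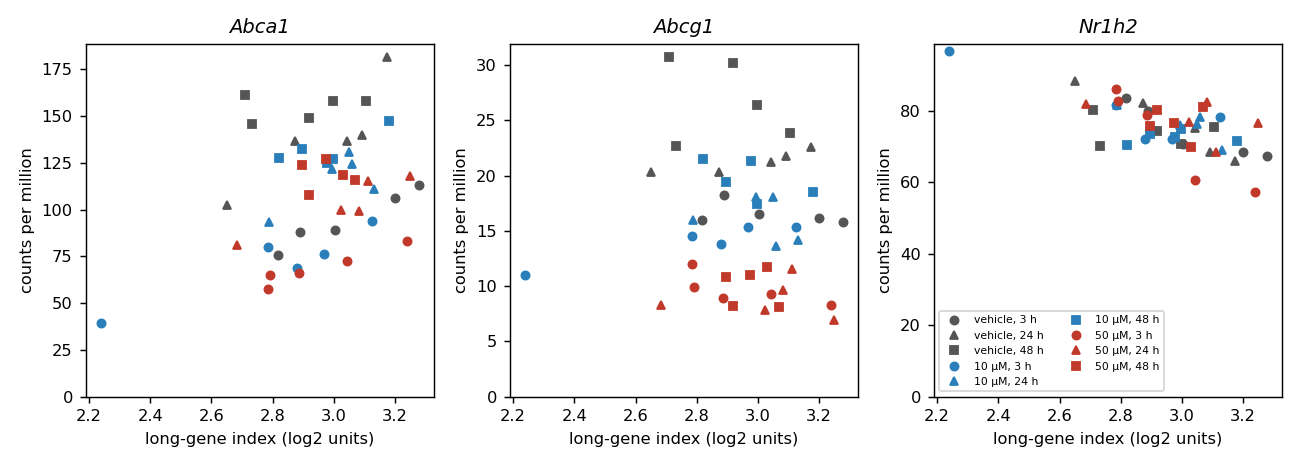
CPM (vertical axis, from 0) of Abca1, Abcg1 and Nr1h2 against the long-gene index of each library (horizontal axis, log2 units), with colour for dose and symbol for culture time. With group means subtracted and all groups pooled, Abca1 climbs with the index (r = 0.863), Nr1h2 descends (-0.719) and Abcg1 does neither (0.0356). Single groups can differ: at 50 µM and 48 h the libraries at 2.896 and 3.069 held 124 and 115.6 CPM of Abca1. The library at 2.24 is replicate 3 of the 10 µM group at 3 h.

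The receptors showed no called change with bisphenol A. Nr1h2, encoding LXRβ, had group means between 72.7 ± 1.72 CPM (10 µM, 48 h) and 80.2 ± 10.1 CPM (10 µM, 3 h) (SD, n = 5). Its log2 fold changes at 50 µM were -0.03 ± 0.11, 0.02 ± 0.09 and 0.04 ± 0.06 at 3, 24 and 48 h (edgeR adjusted p = 0.955, 0.938 and 0.761). Nr1h3, encoding LXRα, measured 5.16, 5.90, 5.07, 5.39 and 4.10 CPM in vehicle at 24 h and 2.87, 3.68, 2.91, 4.15 and 3.14 at 50 µM. A single 50 µM library, replicate 4, came within the vehicle range. The log2 fold change of Nr1h3 was -0.61 ± 0.18 at 24 h (edgeR adjusted p = 0.0764), 0.19 ± 0.21 at 3 h (0.784) and -0.22 ± 0.19 at 48 h (0.541). Of 11 alternatives, 1 called the 24 h difference, DESeq2, and its adjusted p was 0.0431 in the authors' deposited table. Nr1h3 shares 6873 bases of its span with a noncoding gene, Gm13783, on the same strand, and the sources used here do not say how reads in that overlap were counted.

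Mylip, the ligase that lowers lipoprotein receptors, was called in no comparison of a dose with vehicle. At 24 h it measured 74.7, 84.5, 73.3, 74.4 and 81.1 CPM in vehicle and 64.9, 67.1, 69.1, 72.0 and 65.4 at 50 µM. The groups did not overlap, and the difference was not called, with a log2 fold change of -0.20 ± 0.06 (edgeR adjusted p = 0.118). Of 11 alternatives, 1 called it, the long-gene covariate (-0.21, edgeR adjusted p = 0.0248). At 3 and 48 h the values were -0.08 ± 0.08 and -0.08 ± 0.05 (0.771 and 0.401).

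At 10 µM, edgeR called 0 of 6 members at each time, and 0 of 17009 genes (0%) at 3 h, 0 of 17060 (0%) at 24 h and 1 of 16925 (0.00591%) at 48 h. At an unadjusted p below 0.05 there were 2 members at 3 h, 3 at 24 h and 2 at 48 h, beside 974, 786 and 980 genes in all. DESeq2 called 0, 0 and 1 member, the last being Abcg1. With the replicate number as a block, 95 genes were called at 24 h and 37 at 48 h, with 0 members by the titles' numbers, and Abcg1 was called at 48 h by the numbers of the library codes (-0.44, edgeR adjusted p = 0.0239). The log2 fold changes of Abcg1 at 10 µM were -0.25 ± 0.11, -0.40 ± 0.10 and -0.45 ± 0.10 (edgeR adjusted p = 0.7, 0.589 and 0.243). Even so, no 10 µM library reached the vehicle range of Abcg1 at any time, where 0.359%, 0.41% and 0.597% of genes were below vehicle without overlap at the single times.

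Only 2 of 19247 genes (0.0104%) were below vehicle at 10 µM without overlap at all 3 times, Abcg1 and Cpt1a, which encodes the enzyme that admits fatty acids to mitochondria. Cpt1a was singled out after its values were seen. At 50 µM there were 18 such genes (0.0935%), Abcg1 among them. Averaged over the 3 times in a fit of all 45 libraries, the log2 fold change of Abcg1 at 10 µM was -0.36 ± 0.07 and was called (edgeR adjusted p = 0.0018), as 1 of 6 members and among 0.468% of genes. Abca1 averaged -0.29 ± 0.08 and was not called (edgeR adjusted p = 0.0855).

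The step from 10 to 50 µM was itself called for Abcg1 at every time, in the same fit of 45 libraries. The log2 fold change between the doses was -0.53 ± 0.12 at 3 h (edgeR adjusted p = 0.018), -0.86 ± 0.12 at 24 h (0.000105) and -0.97 ± 0.12 at 48 h (4.58e-07). Members called numbered 1 of 6 at 3 h, 1 at 24 h and 2 at 48 h, all lower at 50 µM, where 0.623%, 0.8% and 3.14% of genes were called, and 0.265%, 0.535% and 2.15% as lower. The second at 48 h was Apoe, at -0.45 ± 0.11 (edgeR adjusted p = 0.0144). A fit of the 10 and 50 µM groups alone called neither Abcg1 at 3 h (adjusted p = 0.252) nor Apoe at 48 h (0.0836), and the 3 h call of Abcg1 was absent when any of 5 libraries was left out. Abcg1 and Tmem63a, the latter singled out after its values were seen, were the only 2 of 19247 genes (0.0104%) whose doses were ordered downward without overlap at both 24 and 48 h. That count left out 3 h, where the 10 and 50 µM libraries of Abcg1 overlapped, and it is a description, not a test.

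Whether the effect of 50 µM grew with time was tested as a difference of log2 fold changes. From 3 to 48 h the effect deepened by -0.65 ± 0.17 for Abcg1 (edgeR adjusted p = 0.0275) and by -0.73 ± 0.16 for Apoe (0.0059), 2 of 6 members, where 1.95% of genes were called, 0.348% in the positive and 1.6% in the negative direction. Abca1 gave 0.07 ± 0.19, with an adjusted p of 0.94. From 3 to 24 h the values were -0.49 ± 0.17 for Abcg1 and -0.47 ± 0.16 for Apoe, and neither was called (0.209 and 0.212). That comparison and the one from 24 to 48 h called 0 members, of 0.634% and 0% of genes. At 10 µM the 3 comparisons of times called 0 members and 0% of genes each. At an unadjusted p below 0.05, edgeR gave 3 members and 1886 genes for the 50 µM effect from 3 to 24 h and 0 members and 645 genes from 24 to 48 h. For 10 µM it gave 2 members from 3 to 24 h, 0 from 24 to 48 h and 1 from 3 to 48 h, and DESeq2 called 0 members in these 5 comparisons.

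In vehicle limbs most of these genes climbed with culture time. From 3 to 24 h, 5 of 6 members rose, where 30% of genes were called and 16.3% as higher. Besides Apoe these were Nr1h3 (0.94 ± 0.17, edgeR adjusted p = 0.00078), Abca1 (0.57 ± 0.13, 0.00421), Abcg1 (0.36 ± 0.08, 0.00399) and Mylip (0.32 ± 0.07, 0.00258), all as log2 fold changes. From 24 to 48 h, 2 of 6 rose, Apoe and Abcg1 (0.33 ± 0.10, adjusted p = 0.0455), where 8.45% of genes were called, 5.44% as higher and 3.02% as lower. The Abcg1 call was absent in 8 of the 10 fits that left out 1 library. Over the whole span from 3 to 48 h the same 5 rose, among 46.7% of genes called, 23.9% as higher and 22.9% as lower, and Nr1h2 gave 0.01 ± 0.07 (adjusted p = 0.915). At 50 µM the mean of Abcg1 was 9.69 ± 1.43 CPM at 3 h and 9.99 ± 1.70 at 48 h, and that change was not tested.

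Markers of other cells moved with the same comparisons. The 11 skeletal muscle markers, summed, held 1223 to 1271 CPM in vehicle at 3 h and 1234 to 1358 at 50 µM, and the groups overlapped. At 24 h the sums were 2359 to 4254 and 1923 to 2558, and at 48 h 3381 to 5322 and 1683 to 2680, the last without overlap. The exact two-sided permutation p at 50 µM was 0.0556, 0.0159 and 0.00794 at 3, 24 and 48 h, the last the smallest that 5 against 5 allows. Adjusted over the 6 comparisons of muscle sums with vehicle, these were 0.0833, 0.0476 and 0.0476. At 10 µM the permutation p was 0.0476 at 3 h, with the sum higher than in vehicle. It was 0.1825 at 24 h and 0.365 at 48 h, with the sum lower. This test was added after seeing the data. Its adjustment leaves out the macrophage and epidermal sums, so the adjusted values depend on that choice. At 50 µM, 8 of the 11 markers were called lower at 24 h and 9 at 48 h, against 0 at 3 h, and Myod1 and Myog were not among them. The shares of all genes called lower were 0.518% at 3 h, 2.1% at 24 h and 5.3% at 48 h. With the mean log2 level of the muscle markers as a covariate, chosen after seeing the data, Abcg1 gave log2 fold changes of -0.87 at 3 h (edgeR adjusted p = 0.00108), -1.11 at 24 h (0.0562) and -1.20 at 48 h (0.0477). In that muscle fit the values of Apoe were -0.37 at 24 h (0.186) and -0.24 at 48 h (0.585). Dose and muscle markers move together at 24 and 48 h, and their parts in these falls cannot be told apart there.

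Macrophages, which make Apoe and use both transporters, were traced by 19 markers. Their sum was 104 to 128 CPM in vehicle and 99.1 to 113 at 50 µM at 3 h, 248.7 to 290.7 and 200.6 to 227.5 at 24 h, and 347 to 456 and 194 to 358 at 48 h. Vehicle and 50 µM overlapped at 3 and 48 h but not at 24 h, and the sums at 10 µM overlapped those of vehicle at every time. The exact two-sided permutation p at 50 µM was 0.31, 0.00794 and 0.0238, or 0.929, 0.0952 and 0.143 adjusted over 12 comparisons of macrophage and epidermal sums. Of the markers, 1, 3 and 6 were called lower at 3, 24 and 48 h and 0 higher, where 0.518%, 2.1% and 5.3% of all genes were called lower. With their mean log2 level as a covariate Abcg1 was called at all 3 times (log2 fold changes -0.79, -1.66 and -1.18, edgeR adjusted p = 0.00146, 0.013 and 0.000485). Without the covariate its value at 24 h was -1.27. With the macrophage covariate Apoe was called at 48 h (-0.43, edgeR adjusted p = 0.0341) and not at 24 h (-0.36, 0.411). Dose and macrophage markers move together at 24 h and, with overlap, at 48 h. Their parts in these falls cannot be told apart there. In vehicle the macrophage sum climbed from 114 ± 8.87 to 266 ± 17.4 and 397 ± 50.0 CPM (SD, n = 5), as Apoe did, and with this covariate 0, 1 and 1 member was called in the 24 against 3 h, 48 against 24 h and 48 against 3 h comparisons.

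**Figure D4:**
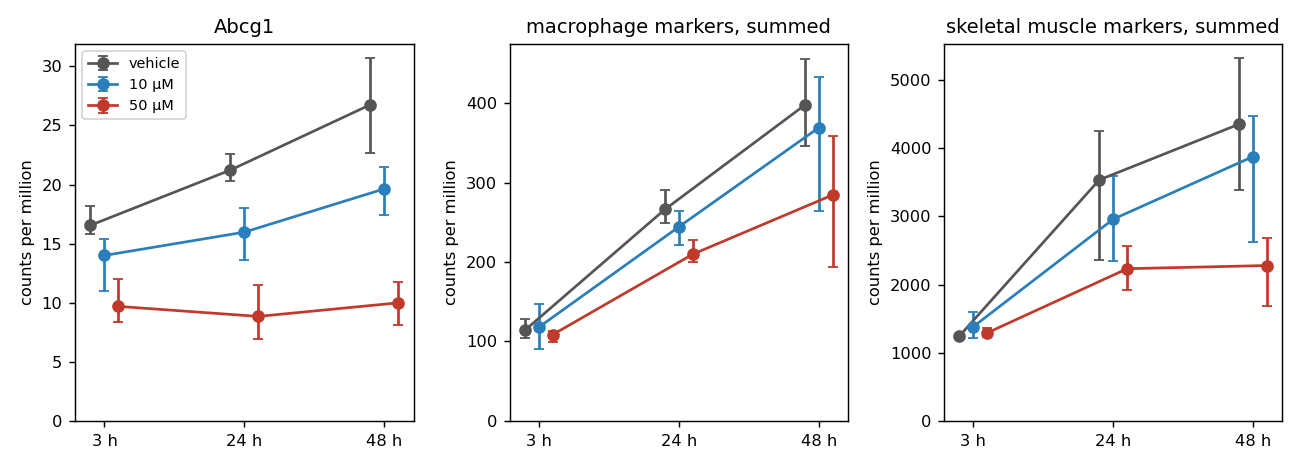
CPM (vertical axes, from 0) of Abcg1, of 19 macrophage markers summed and of 11 skeletal muscle markers summed, by culture time and dose; points are means of 5 libraries and bars run from the lowest to the highest. At 3 h Abcg1 is apart at 50 µM while both marker sums overlap those of vehicle, and at 48 h the muscle sum is 1683 to 2680 CPM at 50 µM against 3381 to 5322.

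Each member was placed in the genome by the deposited tables (mm10). Abca1 spans chr4:53030787-53159895 on the minus strand, Abcg1 chr17:31057698-31115777 on the plus strand and Apoe chr7:19696109-19699188 on the minus strand. Nr1h2 lies at chr7:44549616-44553951 and Nr1h3 at chr2:91184061-91202834, both on the minus strand, and Mylip at chr13:45389742-45412022 on the plus strand. All 6 are protein-coding.

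The genes whose log2 CPM followed each member most closely over the 45 libraries were ranked by Pearson's r among 12652 protein-coding genes, as a description. For Abcg1 these were Aldh1a3 (0.859), a retinaldehyde dehydrogenase, and 2 skeletal muscle genes, Dysf (0.816) and Casq1 (0.81). For Apoe they were Ak1 (0.977), Trim72 (0.972) and Loxl1 (0.97), and for Abca1 Hhip (0.933), Angpt1 (0.92) and Nrk (0.92). Mylip was most like Hhip (0.911), and Abca1 came next (0.898). The receptors had looser company, with Dhrs7c at 0.766 for Nr1h3 and Ccdc9 at 0.762 for Nr1h2. With group means subtracted, the closest gene to Abcg1 was Rabgef1, at 0.544, and the closest to Abca1 was Sash1, at 0.914. The points share culture time, dose and normalisation.

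The rest of the sterol network was described by 6 lists, chosen with earlier results of these data known. The RXR partners and coregulators of the LXRs gave 0 called of 7 at 3 and 24 h, and at 48 h Rxrg alone had fallen (log2 fold change -0.77 ± 0.13, edgeR adjusted p = 0.00178). Among all genes, 1.41%, 3.47% and 9.18% were called at the 3 times. The median log2 fold change of the list was 0.03, 0.07 and 0.02 at the 3 times, against -0.0021, -0.0009 and -0.0049 over all genes. Rxrg is an RXR form found in muscle, among other tissues, and it had climbed in vehicle by 1.32 ± 0.13 from 3 to 48 h (adjusted p = 5.48e-07).

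Other LXR targets did not follow the efflux genes as a group at 50 µM. Of 16 measured from a list of 21, 3 were higher and 0 lower at 3 h, 2 and 2 at 24 h, and 4 and 2 at 48 h, with medians of 0.09, -0.03 and -0.01. Over all genes, 0.889%, 1.37% and 3.88% were called higher and 0.518%, 2.1% and 5.3% lower at these times. Among those that rose, the leading ones were lipogenic enzymes, first of all Scd1, which desaturates fatty acids (1.21 ± 0.07, 0.49 ± 0.09 and 0.54 ± 0.05, edgeR adjusted p = 1.09e-07, 0.00983 and 2.94e-05). Scd2 rose at all 3 times as well (0.49 ± 0.07, 0.37 ± 0.06 and 0.32 ± 0.05), and Fasn, the fatty acid synthase, at 3 h (0.46 ± 0.07, adjusted p = 0.00196). These enzymes also answer to SREBPs. Acaca, another lipogenic enzyme, and Ttc39b, both named after their values were seen, rose at 48 h (0.19 ± 0.05 and 0.35 ± 0.09). The targets that fell were Apoc1, the neighbour of Apoe in its gene cluster (-1.94 ± 0.45 at 24 h and -1.70 ± 0.31 at 48 h, adjusted p = 0.0274 and 0.0027), and Lpl, which encodes lipoprotein lipase (-0.60 ± 0.14 at 24 h, adjusted p = 0.0291). At 48 h Srebf1, a direct LXR target, had fallen as well (-0.27 ± 0.06, adjusted p = 0.0112).

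The SREBP2 targets, which stock the cell with cholesterol, went the other way from Abcg1. At 50 µM, 14 of 16 rose at 3 h, 4 at 24 h and 9 at 48 h, and 0 fell, with median log2 fold changes of 0.81, 0.15 and 0.29. Among all genes, 0.889%, 1.37% and 3.88% were called higher at these times. The 4 of smallest p at 3 h were Dhcr7 (1.15 ± 0.07, edgeR adjusted p = 1.09e-07), Cyp51 (1.03 ± 0.07, 5.14e-07), Idi1 (1.01 ± 0.08, 2.96e-06) and Insig1 (1.10 ± 0.09, 3.55e-06), of which the first 3 make sterols and Insig1 holds SREBPs back. Srebf2, singled out as the gene that carries miR-33, rose by 0.53 ± 0.06 at 3 h (adjusted p = 0.000168) and gave 0.11 ± 0.05 at 24 h (0.36) and 0.15 ± 0.06 at 48 h (0.102). Averaged over the times, 8 of 16 rose at 10 µM, with a median of 0.21, in the comparison in which Abcg1 was called lower. In that comparison 0.379% of all genes were called higher.

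Of the lipoprotein receptors, through which sterol comes in, Lrp8 rose at 3 h (log2 fold change 0.49 ± 0.10, edgeR adjusted p = 0.0136) and Vldlr at 24 and 48 h (0.43 ± 0.11 and 0.58 ± 0.09, 0.0369 and 0.000557). Among 16 genes of sterol transport and storage, of which 14 or 15 were measured, 0 were called at 3 and 24 h, where 1.41% and 3.47% of all genes were. At 48 h Soat1, which esterifies cholesterol for storage (0.30 ± 0.06, adjusted p = 0.00549), and Npc1, which exports it from lysosomes (0.24 ± 0.05, 0.0113), had risen. Gramd1b had fallen (-0.28 ± 0.08, 0.0329). The medians of that list were 0.10, -0.01 and 0.10.

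**Figure D5:**
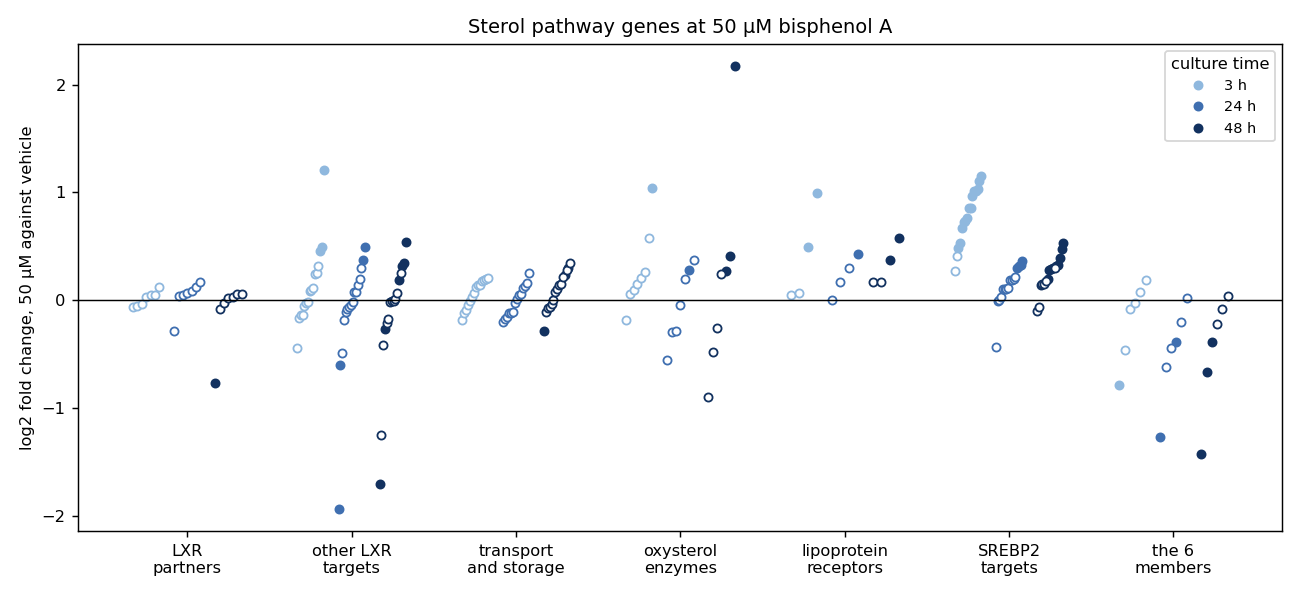
Log2 fold change at 50 µM against vehicle (vertical axis) of each gene of 6 sterol pathway lists and of the 6 members, at 3, 24 and 48 h; a point is a gene, filled where edgeR called it. At 3 h the SREBP2 targets lie above 0, with a median of 0.81, and the one filled member, Abcg1, lies at -0.78.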

How the data were processed

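Poly-A RNA of 45 cultured forelimb bud libraries was measured. Per the submitters' processing notes, CASAVA 1.8, STAR 2.5, HTSeq 0.6.1 and DESeq2 2 were used with mm10, with no roles given; whether counting used strand is not stated there. The authors deposited 9 tables, each of 1 comparison, with raw counts and FPKM per library, and with normalised signal, log2 fold changes and p-values of their own. Counts shared between tables were equal in all 2787110 values compared. The raw counts were tested here with edgeR 4.0.16 (limma 3.58.1, R 4.3.3), by quasi-likelihood on TMM-scaled libraries after a filter at a count of 10 and a total of 15, and called at an adjusted p below 0.05. Comparisons with vehicle and between vehicle times used the 10 libraries compared; dose steps, differences of effects and the mean over times used a fit of all 45. DESeq2 1.42.0, other scalings and filters, replicate blocks, marker covariates and leaving out each library were alternatives. CPM are TMM-scaled over the 45 libraries, and log2 CPM used a prior count of 2. Libraries held 17.5 to 27.1 M counts, and these set the precision of scarce genes.

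The members and lists were chosen with earlier results of these data known. All 6 members are named in every comparison, and from each list up to 4 called genes of smallest p. Replicate numbers of titles were taken to pair the libraries in 3 of 9 comparisons, where all 5 same-numbered pairs had a correlation of deviations above 0.1. These were 10 µM at 24 h (0.229 to 0.674), 10 µM at 48 h (0.126 to 0.614) and 50 µM at 48 h (0.283 to 0.386). Of the 5 treated libraries, 5, 2 and 5 there correlated best with the vehicle library of their own number. At 50 µM and 24 h, not taken as paired, 4 of 5 did. For vehicle 48 against 24 h the number was also 4, and in the rest 2 or 3. The measures thus differ on which comparisons are paired. The pairing comes from the data, not from a label. At 10 µM and 48 h, titles and library codes number replicates 1 and 2 in opposite order, so a block was fitted by each. No p-value over fewer than 10 values rests on a normal approximation other than those of edgeR and DESeq2; marker sums were compared by exact permutation. The tests were tried on simulated counts. Some results on lipoprotein receptors and on oxysterol enzymes, with the counts of those lists, are not reported here.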

Additional observations from a re-analysis of the deposited data

Results flagged for a closer look

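The effect of 50 µM bisphenol A on Abcg1 differed between culture times: the log2 fold change against vehicle was -0.78 at 3 h and -1.43 at 48 h, and the difference of effects was -0.65 ± 0.17 (SE, edgeR adjusted p = 0.0275). It was not called in 6 of 20 fits that left out 1 library: 50 µM 3 h replicate 4, 50 µM 48 h replicates 1 and 4, vehicle 3 h replicate 4, and vehicle 48 h replicates 2 and 5.

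The effect of 50 µM on Apoe also differed between times, from 0.07 at 3 h to -0.66 at 48 h, a difference of effects of -0.73 ± 0.16 (SE, edgeR adjusted p = 0.0059). Muscle and macrophage marker sums were lower at 48 h as well, at 2279 against 4352 CPM and 284 against 397 CPM (means, 50 µM first), and their part in either difference was not tested. In 54 groups of 5 libraries, 0 had an end library whose gap to its neighbour exceeded 0.71 of the group's range (Dixon's criterion). Mylip in replicate 3 of the 10 µM group at 3 h lay just under that limit, at 48.4 CPM against 58.9 to 63.2 in the others.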

How the results depend on the processing

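Of 2598 recomputed member values, 2524 kept their side of the threshold, 53 were no longer called, 20 became called and 1 called value reversed. Of the 2524, 95 that were not called changed sign. The called value that reversed was Abcg1 from 3 to 24 h in vehicle, -0.10 with the macrophage covariate (edgeR adjusted p = 0.979). Members called at 50 µM and 3 h numbered 2 with upper-quartile scaling, no filter, DESeq2 or the long-gene covariate. At 50 µM and 24 h they numbered 4 with DESeq2 or the long-gene covariate, 1 with the macrophage and 0 with the muscle covariate, and at 48 h 1 with the muscle covariate and 2 in the fit of all 45 libraries, where Abca1 was lost. At 24 h Abca1 was called in 5 of 11 alternatives: all 45 libraries, no filter, the replicate block, DESeq2 and the long-gene covariate. At 10 µM and 48 h, 1 was called by DESeq2 and 1 with a block by library-code numbers. For vehicle 48 against 24 h, 1 was called with all 45 libraries, upper-quartile scaling, no filter, or the macrophage or muscle covariate. For 24 against 3 h 0 were called, and for 48 against 3 h 1, with either covariate. The mean over times at 10 µM gave 2 by DESeq2, and the difference of 50 µM effects from 3 to 48 h gave 1 with no filter. Fits of the 10 and 50 µM groups alone gave 0 at 3 h and 1 at 48 h. The long-gene and muscle covariates were chosen after seeing the data, and the cause of these changes was not tested.

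Leaving out 1 library gave 1 to 2 members at 50 µM and 3 h, where Abca1 joined without 50 µM replicate 3 or vehicle replicate 2. It gave 2 to 3 at 24 h, where Abca1 joined without vehicle replicate 1, and 3 at 48 h. Vehicle 48 against 24 h gave 1 to 2. The 50 against 10 µM steps gave 0 to 1, 1 and 1 to 2, with Abcg1 lost at 3 h without 10 µM replicates 1 or 4 or 50 µM replicates 1, 3 or 5, and Apoe lost at 48 h without 10 µM replicates 1 or 5 or 50 µM replicate 1. The change of the 50 µM effect from 3 to 48 h gave 1 to 2, and the 10 µM mean gave 1 to 2, with Abca1 joining without 10 µM 3 h replicate 4, vehicle 24 h replicate 1 or vehicle 3 h replicate 2. With the replicate block by title numbers, members called changed only at 50 µM and 24 h, to 3, where Abca1 joined (-0.43, edgeR adjusted p = 0.00379). In that fit 1180 genes in all were called against 585. There 4 of 5 same-numbered pairs had a correlation of deviations above 0.1 (range 0.0371 to 0.501), short of the 5 taken here as pairing. Of the 5 treated libraries, 4 correlated best with the vehicle library of their own number. Counts of Nr1h3, 32 to 133 a library, limit what can be seen for it.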

Other observations

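Culture time in vehicle also moved other sterol genes. From 3 to 48 h, where 23.9% of all genes were called higher and 22.9% lower, 8 of 16 other LXR targets rose and 0 fell, among them Apoc1 (log2 fold change 2.49 ± 0.24), Lpl (0.97 ± 0.07), Srebf1 (0.75 ± 0.07) and Scd1 (0.66 ± 0.06). Of 14 transport and storage genes 8 rose and 0 fell, led by Lcat, which esterifies cholesterol on lipoproteins (1.49 ± 0.15). Cyp46a1, which hydroxylates cholesterol, rose by 1.16 ± 0.14 (edgeR adjusted p = 3.7e-06). Over the same span all 11 muscle markers rose and all 8 forelimb mesenchyme markers fell, and their part in these changes was not tested.

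Replicate 3 of the 10 µM group at 3 h held the lowest Abca1 (39.4 CPM) and Mylip (48.4 CPM) and the highest Nr1h2 (96.7 CPM) of all 45 libraries. Its long-gene index was 2.24, where the other 44 lay between 2.65 and 3.28.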
